A study of Homo sapiens with 6 samples.

Results

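The cytosolic ribosomal protein genes encode the proteins of the large and small ribosomal subunits. They were taken as the protein-coding genes of the hg19 annotation whose symbol is RPL or RPS followed by a number. RPSA, RPLP0, RPLP1 and RPLP2 were added. Pseudogenes, antisense genes, fusion transcripts and names with L or K after the number were left out. The rule found 79 genes among 20163 protein-coding genes, 46 of the large and 33 of the small subunit. The study used a cell line grown from a human colorectal carcinoma, HCT116, and compared cells with a scramble shRNA (HCT116/Scrsh, here Scrsh) with cells in which a single shRNA was directed at KDM3A as well as KDM3B (HCT116/ABsh-1, here ABsh-1). The treatment is given as siRNA in the labels and as shRNA in the study's methods. Antibodies against KDM3B and H3K9me2 were used for ChIP-seq, with 1 library per antibody and cell population, and each ChIP was compared with input DNA by the authors to give 4 lists of called regions. There were no replicates, so each comparison sets single libraries side by side without a test, and every count below is a description of these 4 lists. KDM3A occupancy was not analysed here, and the shRNA acts on both enzymes, so their parts cannot be told apart.

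KDM3B is a histone demethylase that takes methyl groups from lysine 9 of histone H3, with a preference for the monomethylated and dimethylated forms. H3K9me2 is a mark of silenced stretches of euchromatin and is put on by the methyltransferases G9a and GLP. Ribosomal protein genes are among the most actively transcribed genes of a dividing cell, their mRNAs begin with a terminal oligopyrimidine (TOP) tract through which TOR signalling controls their translation, and each functional gene has left many processed pseudogenes in the human genome.

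A region was counted for a gene when it overlapped the 5 kb on either side of any annotated transcription start site (TSS) of that gene by at least 1 base. Covered bases are the bases of these joined windows that lie inside regions. The deposited regions lie on a grid of 100-base windows, so 100 bases is the smallest whole region. The lists name no read numbers, the depth of the libraries is therefore unknown, and list length and sequencing depth cannot be told apart. The lists held 17638 KDM3B regions in Scrsh and 8046 in ABsh-1, and 11645 and 88855 H3K9me2 regions. Of these, 96, 35, 2 and 39 lay at ribosomal protein genes.

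The following sequences are shown because the results turn on them. They are the hg19 sequence from 200 bases before to 20 bases into the transcript for 5 promoters, on the strand of the gene, and 1 whole region on the plus strand. RPL3 had the most bases covered by KDM3B in Scrsh and RPL13, level with RPS2, the second most, RPS18 had KDM3B regions in Scrsh only, RPL21 had a KDM3B region over its start site in both cell populations, and RPS3 had one in ABsh-1 only. The RPL23A sequence is an H3K9me2 region that was listed in both populations. Capitals mark the strings CCGGAAG (ETS family), GGGCGG (GC box) or its reverse complement, and CTTTCC near the start site on the gene's own strand. CTTTCC is a string that a TOP tract can hold, and a TOP tract can lack it. In RPL3 CCGGAAG and GGGCGG adjoin.
RPL3 promoter, chr22:39715609-39715828, minus strand: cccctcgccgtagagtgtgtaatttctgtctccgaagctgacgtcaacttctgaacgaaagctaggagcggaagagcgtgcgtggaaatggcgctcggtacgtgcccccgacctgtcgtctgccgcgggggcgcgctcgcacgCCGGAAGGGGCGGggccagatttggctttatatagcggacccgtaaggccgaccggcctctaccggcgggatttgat
RPL13 promoter, chr16:89626890-89627109, plus strand: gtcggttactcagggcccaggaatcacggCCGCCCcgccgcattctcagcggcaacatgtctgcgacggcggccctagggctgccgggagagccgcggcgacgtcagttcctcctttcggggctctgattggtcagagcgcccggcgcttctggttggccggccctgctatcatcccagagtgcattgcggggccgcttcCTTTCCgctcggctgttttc
RPS18 promoter, chr6:33239652-33239871, plus strand: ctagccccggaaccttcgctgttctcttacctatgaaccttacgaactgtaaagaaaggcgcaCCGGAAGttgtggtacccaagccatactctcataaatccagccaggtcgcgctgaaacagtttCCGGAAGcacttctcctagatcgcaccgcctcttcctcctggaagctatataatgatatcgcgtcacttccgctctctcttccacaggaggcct
RPL21 promoter, chr13:27825495-27825714, plus strand: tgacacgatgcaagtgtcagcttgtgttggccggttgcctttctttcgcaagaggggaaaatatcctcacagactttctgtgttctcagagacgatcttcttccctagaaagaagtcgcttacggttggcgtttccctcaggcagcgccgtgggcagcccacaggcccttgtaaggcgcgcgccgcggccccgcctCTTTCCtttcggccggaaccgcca
RPS3 promoter, chr11:75110362-75110581, plus strand: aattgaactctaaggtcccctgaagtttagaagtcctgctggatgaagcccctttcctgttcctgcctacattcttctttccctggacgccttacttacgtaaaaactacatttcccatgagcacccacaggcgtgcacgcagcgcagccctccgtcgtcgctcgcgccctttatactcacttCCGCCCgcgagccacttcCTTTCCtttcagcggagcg
RPL23A H3K9me2 region, chr17:27044001-27044100, plus strand: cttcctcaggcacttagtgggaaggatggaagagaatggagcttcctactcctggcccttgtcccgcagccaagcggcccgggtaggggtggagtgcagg

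KDM3B was listed in Scrsh at 58 of the 79 ribosomal protein genes, or 73.4% (95% interval by the Wilson method, 62.8 to 81.9%), against 35.0% of all protein-coding genes. In ABsh-1 it was listed at 32, or 40.5% (30.4 to 51.5%) against 19.2%. H3K9me2 ran the other way. In Scrsh 2 of the 79 genes carried an H3K9me2 region, 2.53% (0.697 to 8.77%) against 10.2%, and in ABsh-1 19 did, 24.1% (16 to 34.5%) against 49.2%. These intervals hold counting error alone, and genes that share a region are not independent. The ribosomal protein genes thus stood above the protein-coding share in both KDM3B lists and below it in both H3K9me2 lists. Both subunits showed this: KDM3B was listed in Scrsh at 33 of the 46 large-subunit genes (71.7%) and at 25 of the 33 small-subunit genes (75.8%), and H3K9me2 in ABsh-1 at 13 (28.3%) and 6 (18.2%).

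**Figure D1:**
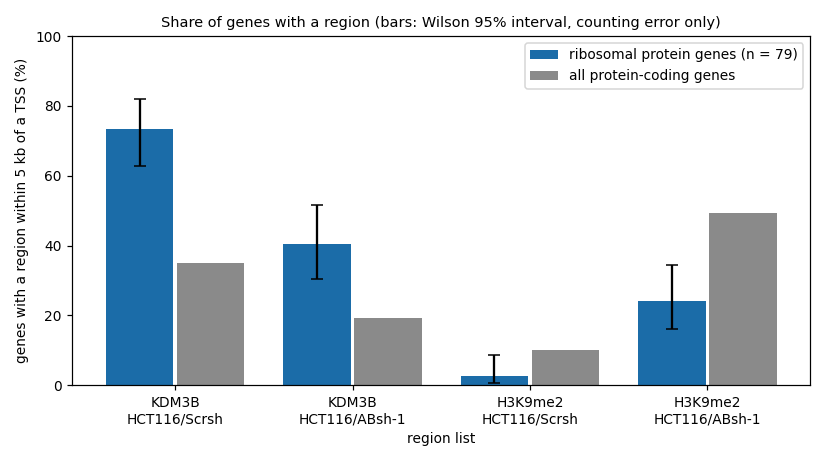
Percentage of genes with a region within 5 kb of a TSS in each of the 4 lists, for the 79 ribosomal protein genes (blue, with Wilson 95% intervals for counting error) and all 20163 protein-coding genes (grey). The blue bar is the taller one for KDM3B (73.4 and 40.5% against 35.0 and 19.2%) and the shorter one for H3K9me2 (2.53 and 24.1% against 10.2 and 49.2%).

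KDM3B was listed in Scrsh only at 32 ribosomal protein genes (40.5%, against 20% of protein-coding genes), in both populations at 26 (32.9% against 15%) and in ABsh-1 only at 6 (7.59% against 4.24%). Covered bases averaged 329 per ribosomal protein gene in Scrsh and 78.5 in ABsh-1, against 99.1 and 40 over protein-coding genes, although the joined windows of the ribosomal protein genes were shorter, with a median of 12041 bases against 19311. Fewer KDM3B bases were listed in ABsh-1 than in Scrsh at 52 genes (65.8%, against 28.7% of protein-coding genes), more at 8 (10.1% against 7.01%), and as many at 19. The ABsh-1 list is the shorter one. When the Scrsh list was shortened from its highest score down to the same number of regions, 42 ribosomal protein genes carried KDM3B in Scrsh and 32 in ABsh-1, while the protein-coding shares were 19.6 and 19.2%.

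The 10 ribosomal protein genes with the most KDM3B bases in Scrsh held between 800 and 1600 bases. RPL3 (chr22:39708887-39716394), a core protein of the peptidyl transferase centre, had 7 regions over 1600 bases in Scrsh and 1 region of 100 bases in ABsh-1. Its regions ran from the promoter to beyond the end of the gene, the widest, of 500 bases, was centred 10078 bases past the canonical TSS, and the ABsh-1 region lay 8678 bases past it. RPL13 (chr16:89627085-89630950) had 3 regions over 1500 bases against 3 over 600. RPS2 (chr16:2012059-2014842), which lies near the mRNA entrance of the small subunit, had 3 regions over 1500 bases against 1 of 200. At RPS2 the largest region, of 900 bases, was nearer to the start of NDUFB10, and RPL3L, a muscle paralogue of RPL3 that the rule leaves out, had 900 bases covered by 1 region. All 3 genes thus had fewer KDM3B bases in ABsh-1 but not none.

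RPL36 (chr19:5674958-5691886) had 6 regions over 1100 bases in Scrsh and none in ABsh-1. RPS18 (chr6:33239852-33244288) had 4 regions over 1000 bases, the widest covering 600 bases across its start site, and none in ABsh-1. RPS26 (chr12:56435135-56438481) had 1 region of 800 bases centred in the 5′ UTR, 198 bases past the canonical TSS, and none in ABsh-1. RPS26 is one of the genes mutated in Diamond-Blackfan anaemia, an inherited failure of red cell production. These 3 genes had no KDM3B region left in ABsh-1, while the other 7 of the 10 had between 100 and 600 bases there.

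RPL8 (chr8:146015150-146017972), another protein of the peptidyl transferase centre, had 2 regions over 1000 bases in Scrsh and 1 of 100 bases in ABsh-1, and its 900-base region lay nearer to the start of ZNF34. RPL18 (chr19:49118585-49122441) had 3 regions over 900 bases against 2 over 200. RPL26 (chr17:8280834-8286531) had 2 regions over 900 bases against 1 of 100, and its 600-base region lay nearer to the start of KRBA2. RPL27A (chr11:8704335-8736306) had 2 regions over 800 bases against 1 of 100. In each of these 4 genes the ABsh-1 value was below the Scrsh value.

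At the 26 genes with KDM3B in both populations, median coverage was 550 bases in Scrsh and 150 in ABsh-1, and the value was lower in ABsh-1 at 20 genes, higher at 2 and equal at 4. The 2 genes with more were RPL7 (chr8:74202477-74208024), with 1 region of 600 bases against 1 of 700, and RPL10A (chr6:35436178-35438562), a protein of the L1 stalk where spent tRNA leaves, with 1 region of 200 bases against 1 of 300. The RPL7 region, 382 bases before the canonical TSS in ABsh-1, ranked above 99.2% of that list by score. The score's meaning is not named in the sources used here, and it served only to rank regions within a list. At RPL13 and RPL21, also among the 5 genes with the most KDM3B in ABsh-1, the values there were 600 and 300 bases against 1500 and 600 in Scrsh. At RPL21 (chr13:27825499-27830828) the region covered the start site in both. At RPS24, RPS15, RPS23 and RPL24 the covered bases did not differ between the lists.

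A gene that carried KDM3B in both lists did not always carry it at one place. Of the 35 KDM3B regions of ABsh-1 at ribosomal protein genes, 15 overlapped a region of Scrsh (42.9%, against 53.0% of the ABsh-1 regions at protein-coding genes). Of the other 20, 8 touched a region of Scrsh end to end without sharing a base, at RPL3, RPL10A, RPL13A, RPL15, RPL18, RPL27, RPS23 and RPS27A. Another 3 lay within 500 bases of a Scrsh region, and 9 lay farther away. The 9 include the regions of RPL14, RPL35, RPLP2, RPS3, RPS3A and RPS4X. These genes had KDM3B in ABsh-1 only, so their windows held no Scrsh region to overlap. At 15 of the 26 genes at least 1 region overlapped between the populations. Neither this count nor the distances above were computed over protein-coding genes. They cannot be called particular to the ribosomal protein genes.

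The 6 genes with KDM3B in ABsh-1 only each had 1 region there and none in Scrsh. RPS3 (chr11:75110559-75133324), a small-subunit protein that also cuts damaged DNA, had 200 bases centred 38 bases into the gene. RPL14 (chr3:40498783-40510078), RPL35 (chr9:127620159-127624260), RPLP2, RPS3A (chr4:152020776-152025794) and RPS4X had 100 bases each. Relative to the canonical TSS the centres lay at -4080 for RPL14, -414 for RPL35, -417 for RPLP2, -130 for RPS3A and 148 for RPS4X. These regions were small. By score they stood at percentile 63.5 of their list for RPS3, 28.3 for RPL14 and RPS3A, 17.5 for RPLP2, 11.7 for RPL35 and 3 for RPS4X. None of the 6 genes carried an H3K9me2 region in either population.

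KDM3B regions often lay near the start sites of these genes. At 3 of the 58 genes with KDM3B in Scrsh and 14 of the 32 in ABsh-1, no region was centred within 1000 bases of the canonical TSS. These counts were not made over protein-coding genes, so they cannot be set against a wider share. Of the 97 pairs of a gene and a KDM3B region in Scrsh, 51 had the region's centre within 500 bases of the canonical TSS (52.6%, against 36.3% over protein-coding genes), and in ABsh-1 19 of 36 did (52.8% against 38.8%). The median distance was 420 and 416 bases, against 1572 and 1550 over protein-coding genes, whose joined windows were longer. It was 236 and 258 bases in the highest-scoring 50% of each list, and 208 bases in Scrsh when the nearest annotated TSS was used. In Scrsh 36.3% of bases were covered in the 100 bases before the TSS, averaged over the ribosomal protein start sites. Coverage averaged 17.7% within 500 bases and 0.776% beyond 1000 bases. The highest share over protein-coding genes was 7.88%. In ABsh-1 the highest share of covered bases at the ribosomal protein start sites was 10.1%, between 200 and 100 bases before the TSS, against 3.59%. Coverage was higher before the start than after it, at 21.3 and 14.2% over 500 bases in Scrsh and 6.84 and 1.67% in ABsh-1, and protein-coding genes had the same order, at 5.54 and 2.32% and at 2.35 and 1.02%. By place in the canonical transcript, the centres in Scrsh lay upstream in 43 pairs, in an intron in 23, downstream of the gene in 21, in a 5′ UTR in 7 and in a 3′ UTR in 3.

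By width and score the KDM3B regions of these genes in Scrsh were less often a single 100-base window than those of protein-coding genes, 38.5% against 48.8%, and their median score percentile was 63.4 against 50.6. In ABsh-1 the order was the other way, with 65.7% against 57.3% of single windows and median percentiles of 33.2 and 45.7. In 25 of the 97 pairs of Scrsh and 14 of the 36 of ABsh-1, the nearest canonical TSS was that of another protein-coding gene, as at RPS24, where the Scrsh region lay 23 bases from the TSS of POLR3A and at -4371 from that of RPS24, and at RPS29, where 1 of its 2 regions lay 158 bases from that of LRR1. The share of such pairs over protein-coding genes was not computed. When a region was counted only for the gene with the nearest canonical TSS, 54 ribosomal protein genes carried KDM3B in Scrsh (68.4%, against 27.2% of protein-coding genes) and 19 in ABsh-1 (24.1% against 14.4%).

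H3K9me2 was listed in ABsh-1 only at 17 of the 79 genes (21.5%, against 40.2% of protein-coding genes), in both populations at 2 (2.53% against 9.06%) and in Scrsh only at none (against 1.19%). Covered bases averaged 5.06 in Scrsh and 128 in ABsh-1, against 22.1 and 708 over protein-coding genes. The ABsh-1 mean was 44.3 bases when that list was shortened to the length of the Scrsh list, with H3K9me2 at 4 genes, 37.8 with 2 kb windows and 76.8 with the canonical TSS only. By bases, H3K9me2 was higher in ABsh-1 at 19 genes (24.1%, against 48.4% of protein-coding genes), lower at none and equal at 60. The 2 genes with H3K9me2 in Scrsh were RPL23A and RPL36. RPL23A (chr17:27047003-27051377), which lies at the exit of the peptide tunnel, had the 100-base region printed above in Scrsh, 2953 bases before its canonical TSS, and 2 regions over 900 bases in ABsh-1, of which 1 overlapped it. All 3 lay nearer to the start of RAB34. RPL36 had 1 region of 300 bases in Scrsh and 9 regions over 2700 bases in ABsh-1, the most of these genes. Of those 9, 8 lay nearer to the starts of HSD11B1L or MICOS13, and the nearest to the canonical TSS of RPL36 was centred 3856 bases before it.

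RPS15 (chr19:1438357-1440494), a small-subunit protein near the decoding site, had 5 H3K9me2 regions over 2000 bases in ABsh-1 and none in Scrsh, and its KDM3B value was 200 bases in both populations. Its widest H3K9me2 region, of 1200 bases, was centred 4195 bases before the canonical TSS. RPL18 had 2 regions over 900 bases and RPS2 had 1 of 700, each with none in Scrsh. RPL13 had 3 regions over 300 bases, RPL38, which favours the translation of Hox mRNAs, had 2 over 300 and RPL22 had 1 of 300. RPL22 binds a small RNA of Epstein-Barr virus and acts outside the ribosome in lymphocytes. Smaller values, between 100 and 165 bases, were held by 9 genes, RPL4, RPL5, RPL13A, RPL19, RPL28, RPL31, RPL41, RPS19 and RPS29, and RPL31 had no KDM3B region in either list. Most of the H3K9me2 bases were thus in a few genes, led by RPL36 and RPS15 on chromosome 19.

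The centres of the 39 H3K9me2 regions of ABsh-1 had a median distance of 3957 bases from the canonical TSS, nearer than the 6243 bases over protein-coding genes, whose joined windows were longer. Close to the start the order was the other way, and 1 of 39 lay within 500 bases (2.56%, against 6.48% over protein-coding genes). That region was at RPL31, 401 bases before its TSS. No ribosomal protein gene had H3K9me2 between 300 bases before and 1800 bases after its canonical TSS, a stretch in which between 3.16 and 6.4% of protein-coding start sites were covered. None of the 39 regions overlapped a KDM3B region of Scrsh. Such overlap was rare at protein-coding genes too, at 0.123% of their H3K9me2 regions, so none among 39 is near that share. The nearest KDM3B region of Scrsh was between 300 and 15500 bases away, with a median of 2400. These distances were not computed over protein-coding genes. By KDM3B state, H3K9me2 was listed in ABsh-1 at 9 of the 32 genes with KDM3B in Scrsh only (28.1%, against 49.7% of protein-coding genes of that state), at 8 of the 26 with KDM3B in both (30.8% against 58.2%), at 0 of the 6 with it in ABsh-1 only (against 53.1%) and at 2 of the 15 with none (13.3% against 46.6%). Of the 26 genes with KDM3B in both, 20 had fewer KDM3B bases in ABsh-1, so this split does not part kept from lost KDM3B. Whether H3K9me2 followed the change in KDM3B was not tested.

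The H3K9me2 share moved with GC content and with chromosome 19. The joined windows of the 19 genes with H3K9me2 in ABsh-1 had a median GC content of 53.5%, against 46.6% for the other 60. In windows of equal length, 5 kb on either side of the canonical TSS, the ribosomal protein genes carried H3K9me2 in ABsh-1 at 2 of 25 genes with a GC content from 40 to 45%, 13.8% of the 29 from 45 to 50%, 36.8% of the 19 from 50 to 55% and 66.7% of the 6 above that, and the protein-coding shares in those bins were 17.4, 34.1, 69.9 and 91.9%. For KDM3B in Scrsh the shares were 68.0, 72.4, 78.9 and 83.3% against 27.9, 28.0, 31.7 and 34.1%. In each bin the ribosomal protein genes lay above the protein-coding share for KDM3B and below it for H3K9me2. On chromosome 19, which holds 12 of the 79 genes, 8 carried H3K9me2 in ABsh-1 (66.7%, against 73.3% of its protein-coding genes), and on the other chromosomes 11 of 67 did (16.4% against 47.3%). The part of GC content and of chromosome 19 in these counts was not tested.

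By role, the proteins of the stalk, which recruits the elongation factors, differed from each other. RPLP0 (chr12:120634502-120639038) had 2 KDM3B regions over 200 bases in Scrsh and none in ABsh-1, RPLP1 (chr15:69745153-69748544) had no region in any list, and RPLP2 (chr11:809965-812880) had its only region, KDM3B over 100 bases, in ABsh-1. RPL5 (chr1:93297570-93307481) and RPL11 (chr1:24018232-24023325), which bind MDM2 when ribosome assembly is disturbed, both had KDM3B in Scrsh only, over 600 and 100 bases. RPL5 also had 100 bases of H3K9me2 in ABsh-1, and RPL11 had none. RPS6 (chr9:19375713-19380234), the substrate of S6 kinase, had 1 KDM3B region of 300 bases centred 16 bases before its start in Scrsh and no other region. RPSA (chr3:39448207-39467746), also known as the laminin receptor, had 1 KDM3B region of 100 bases in Scrsh and no other. RPS27A (chr2:55459039-55462989), which encodes ubiquitin fused to a ribosomal protein, had KDM3B over 500 bases in Scrsh and 100 in ABsh-1. RPS4X (chrX:71475529-71497098) had KDM3B in ABsh-1 only, and its Y-linked copy RPS4Y1 had no region in any list.

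Among 8 genes often mutated in Diamond-Blackfan anaemia, RPL5, RPL11, RPS7, RPS19 and RPS26 had KDM3B in Scrsh only, over 600, 100, 200, 100 and 800 bases. RPL35A had 400 bases in Scrsh and 100 in ABsh-1, and RPS24 had 300 in both. RPS10 had no region in any list. H3K9me2 was listed in ABsh-1 at RPL5 and RPS19, over 100 bases each. KDM3B was thus listed at 7 of 8 in Scrsh and at 2 of 8 in ABsh-1. The shares were 73.4 and 40.5% over the 79 ribosomal protein genes and 35.0 and 19.2% over protein-coding genes.

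No region was listed in any of the 4 lists at 13 of the 79 genes (16.5%, against 31.6% of protein-coding genes). Among them were RPL7A, RPL9, RPL12, RPL23, RPL34, RPL36A, RPL37, RPL37A, RPLP1, RPS4Y1, RPS4Y2 and RPS10. The authors kept reads with a unique position, so reads from stretches that occur again elsewhere were not kept. The share of 50-base stretches within a gene's joined windows that occur again exactly in hg19 had a median of 6.5% over the 79 genes. Where this share is high, the absence of a region says nothing of KDM3B or H3K9me2. At the 75 genes with under 10% of such stretches around the canonical TSS, KDM3B was listed in Scrsh at 56 (74.7%, against 37.2% of protein-coding genes so chosen), an alternative added after the data were seen. Of 1564 ribosomal protein pseudogenes, 8 had a KDM3B region of Scrsh over their own body (0.512%, against 1.14% of all annotated pseudogenes) and 30 an H3K9me2 region of ABsh-1 (1.92% against 6.70%). Within 5 kb of a TSS of the pseudogenes the KDM3B shares were above those of all pseudogenes, at 6.71% against 4.97% in Scrsh and 3.52% against 2.68% in ABsh-1, and the H3K9me2 shares were below, at 3.45% against 5.01% and 13.7% against 15.4%.

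The promoters of these genes, read from 250 bases before the canonical TSS to 50 bases from it, were searched for 5 strings, on both strands where not said otherwise. CCGGAAG, of the ETS family, stood in 27 of 79 (34.2%, against 14.2% of protein-coding promoters of the same length). Of these, 7 were among the 26 genes with KDM3B in both populations and 12 among the 32 with it in Scrsh only. AAGATGGC, of YY1, stood in 10 (12.7% against 4.06%), 7 of them among the 26 genes with KDM3B in both populations and 2 among the 32 with it in Scrsh only. GGGCGG, the GC box, stood in 46 (58.2% against 61.5%), 15 of them among the 26 and 17 among the 32. CTTTGAT, of TCF/LEF, stood in 1 (1.27% against 1.91%). CTTTCC within 15 bases of the TSS on the gene's own strand, a string that a TOP tract can hold, stood in 23 (29.1% against 1.73%). It stood at 28.1% of the genes with KDM3B in Scrsh only, 26.9% of those with it in both and 33.3% of those with no KDM3B region. A TOP tract can lack this string, so these are not counts of TOP starts. The splits by KDM3B state have no protein-coding share beside them, and a link of any string to KDM3B was not tested. A match is a string of letters and not a bound site.

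Other genes of the translation machinery, listed by function, were counted in the same windows, in which 35.0 and 19.2% of protein-coding genes carried KDM3B in Scrsh and ABsh-1, and 10.2 and 49.2% H3K9me2. Of the 78 mitochondrial ribosomal protein genes, which serve the ribosome of the mitochondrion, 48 carried KDM3B in Scrsh (61.5%) and 20 in ABsh-1 (25.6%), and 1 and 24 carried H3K9me2 (1.28 and 30.8%). Of 12 genes of translation elongation and other TOP mRNAs, 10 carried KDM3B in Scrsh and 8 in ABsh-1, and 0 and 3 carried H3K9me2. Named after their values were seen, EEF1A1, the elongation factor that brings aminoacyl-tRNA to the ribosome, had 4 KDM3B regions over 1100 bases against 2 over 300 and no H3K9me2, while EEF1D had 14 H3K9me2 regions over 6111 bases in ABsh-1. Of 16 genes of ribosome assembly, 10 and 5 carried KDM3B, and 1 and 5 H3K9me2. NPM1, the nucleolar chaperone nucleophosmin, had 400 bases of KDM3B in Scrsh and no other region. Of 11 genes of RNA polymerase I, which transcribes the ribosomal RNA, 6 and 3 carried KDM3B, and 0 and 8 H3K9me2. Of 10 genes of TOR signalling to translation, 6 and 2 carried KDM3B, and 0 and 5 H3K9me2, with the most at RPTOR, 25 regions over 10300 bases. Of 10 ribosomal protein-like paralogues and fusion genes that the rule leaves out, 6 and 5 carried KDM3B, and 0 and 5 H3K9me2. The order between the populations in these lists was also that of all protein-coding genes, and several counts, such as H3K9me2 in ABsh-1 at 5 of 10 TOR genes, were near the protein-coding share.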

How the data were processed

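ChIP-seq of KDM3B and H3K9me2 in HCT116/Scrsh and HCT116/ABsh-1 gave 4 region lists. The authors mapped reads of 50 bases to hg19 with Bowtie, both also named in the submitters' processing notes, kept unique positions, and called 100-base windows by a Poisson test of ChIP over input. The authors deposited 1 list per ChIP library, with positions and a whole-number score of at least 2, whose meaning is not given in the sources used here. The 2 inputs were not analysed here, and the depth of each library is unknown.

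Genes came from GENCODE release 44 lifted to hg19, with 64449 genes. Members and lists were chosen with earlier results of these data known. The named genes were the 10 with the most KDM3B bases in HCT116/Scrsh, those with KDM3B in HCT116/ABsh-1 only and the 5 with the most there, the 10 with the most H3K9me2 in HCT116/ABsh-1 and each with H3K9me2 in HCT116/Scrsh, members chosen by role, and those with no region. Ties went to more regions, then to the symbol. The overlap counts and the search for repeated stretches were tested on simulated data. Python 3.11.15, numpy 2.4.6, pandas 2.3.3, scipy 1.17.1 and numba 0.67.0 were used. Alternatives were the window, start sites, score, list length, overlap and nearest gene. Leaving out chromosome 19, and genes with 10% or more repeated stretches at the TSS, was added after seeing the data. Some genes that the rule names are not reported here.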

Additional observations from a re-analysis of the deposited data

How the results depend on the processing

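Of 100 alternatives over all results, 63 left the value within its limit of the main one and 37 moved it. KDM3B in Scrsh stayed between 42 and 58 genes, and the ribosomal protein share stayed above the protein-coding share for KDM3B and below it for H3K9me2 under each window, score, list length, overlap and nearest-gene setting. With the highest-scoring 50% of each list, KDM3B was listed in ABsh-1 at 15 genes (19% against 9.94%). It was listed in both at 13 (16.5% against 7.46%) and in ABsh-1 only at 2 (2.53% against 2.48%). The share for ABsh-1 only was thus close to the protein-coding share. H3K9me2 was listed at 1 gene in Scrsh (1.27% against 6.55%) and at 10 in ABsh-1 (12.7% against 37%). Of the genes in ABsh-1, 9 were new there (11.4% against 31.4%). With the nearest canonical TSS, KDM3B was listed in ABsh-1 at 19 genes (24.1% against 14.4%) and in both at 13 (16.5% against 10.5%). H3K9me2 was then listed at 0 in Scrsh (against 8.32%) and at 12 in ABsh-1 (15.2% against 43.2%). With 2 kb windows, H3K9me2 was listed at 0 genes in Scrsh (against 6.86%) and at 11 in ABsh-1 (13.9% against 42.7%). All 11 were new there (13.9% against 36.5%). With the canonical TSS only, H3K9me2 was listed at 1 gene in Scrsh (1.27% against 6.06%). With equal numbers of regions, KDM3B was listed in Scrsh only at 19 genes (24.1% against 8.78%). H3K9me2 was then listed in ABsh-1 at 4 (5.06% against 17.0%), of which 3 were new (3.80% against 12.1%). Fewer regions or shorter windows can hold no more genes in a single list, but counts of genes in 1 list only can rise. KDM3B in Scrsh only was listed at 38 genes with 2 kb windows (48.1%, against 17.6% of protein-coding genes). It was listed at 38 with the canonical TSS only (48.1% against 17.0%) and at 41 with the nearest canonical TSS (51.9% against 16.7%). With equal numbers of regions, KDM3B in ABsh-1 only was listed at 9 genes (11.4% against 8.43%). The cause of these moves was not tested. Without chromosome 19, a choice made after seeing the data, H3K9me2 was listed in ABsh-1 at 11 genes (16.4% against 47.3%). Depth is unknown, and with 1 library per condition no replicate could be left out.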
